A study of Mus musculus with 15 samples.

Results

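Organic ion and drug transporters of the mouse kidney were described in single proximal tubules labelled PTS2 and in whole kidney. The members were all genes whose symbols belong to the Slc22a, Slco, Slc47a or Abcc families, with pseudogenes left out. This rule took 52 of the 47069 genes in the table: 25 Slc22a, 15 Slco, 2 Slc47a and 10 Abcc genes. The rule used symbols only and no measured value, but the members were chosen with earlier results of these data known. RNA-Seq abundances in TPM (transcript abundance scaled to transcript length and to a common library total) were compared in 15 libraries, all from male C57BL/6 mice 2 months of age. PTS2 was represented by 12 libraries, each from a single microdissected tubule. They form the sets m1, m2 and m3, each with libraries numbered 1 to 4. The remaining 3 libraries were whole kidney. The labels name no treatment or genotype, and they do not say what a set or a number stands for, or which libraries came from 1 animal. The p-values therefore measure the spread between these libraries, which may in part be technical.

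The proximal tubule takes organic anions and cations, among them many drugs, toxins and metabolites, out of the blood and secretes them into the urine. Uptake from the blood runs through those Slc22 carriers that lie in the basolateral membrane. Exit into the lumen runs through carriers and pumps of the brush border such as Slc47a1 and Abcc2, while Slco carriers move larger anions, steroids and prostaglandins. The segments S1, S2 and S3 follow each other along the tubule and differ in which of these carriers they express.

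The markers of organic anion transport named for these tubules, Slc22a6, Slc22a7 and Slc22a8, were all detected in every PTS2 library. The S1 markers Slc5a2 and Slc5a12 summed to at most 1.49 TPM in PTS2 and to between 699 and 780.0 TPM in whole kidney. The S3 markers Slc7a13 and Cyp7b1 summed to between 1463 and 2907 TPM in PTS2 and to between 856 and 1124 TPM in whole kidney, so the tubules lacked S1 markers but carried S3 markers. Markers of the thick ascending limb, a later nephron segment, summed to 1441 TPM in number 3 of set m3, 55.8 TPM in number 4 of set m1 and 45.8 TPM in number 2 of set m2, against a PTS2 median of 10.7 TPM and at least 2425 TPM in whole kidney. Calls of described members that changed without the first 2 of these libraries, or without all 3, are given beside the member. Endothelial markers summed to 20.2 to 81.9 TPM in PTS2 and 252 to 262 TPM in whole kidney, and macrophage markers to 23.1 to 77.1 TPM and 71.8 to 93.4 TPM. The macrophage markers went opposite ways: Csf1r averaged 39.1 TPM in PTS2 and 21.1 TPM in kidney, while Cd68, C1qa and C1qb averaged 0.782, 1.69 and 3.92 TPM in PTS2 and 4.91, 17.0 and 37.4 TPM in kidney. The depth behind each value is unknown, because TPM do not carry it.

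All 52 members were found by gene identifier in the GENCODE M21 annotation of GRCm38. The carriers most strongly expressed in PTS2 lie on several chromosomes. Slc22a18 lies at chr7:143473736-143499334, Slc22a7 at chr17:46432183-46438457 and Slc47a1 at chr11:61343401-61378345. On chromosome 19, Slc22a8 (chr19:8591254-8611835) and Slc22a6 (chr19:8618039-8628299) are next to each other on the plus strand. Upstream of them, 6 further members, Slc22a19, Slc22a26, Slc22a27, Slc22a28, Slc22a29 and Slc22a30, lie between positions 7673061 and 8405111, all on the minus strand. The 250 bases before the RefSeq start site (GRCm38.p6) are shown for 6 members whose level differed between the tubule numbers, as described further on, because these members moved in 2 opposite groups. From the group lower in number 4 the windows that share a stretch were chosen; those of Slco4c1 and Slco2a1 lack it and are not printed. Slc22a6 (chr19:8617746-8617995, plus strand), Slc22a8 (chr19:8592932-8593181, plus strand) and Slco1a6 (chr6:142186150-142186399, minus strand) were higher in number 4. The windows of Slc22a8 and Slco1a6 lie inside the GENCODE spans of these genes (Slco1a6 at chr6:142085761-142208521). RefSeq and GENCODE thus place their outermost starts differently. Slc22a19 (chr19:7711311-7711560, minus strand), Slc22a13 (chr9:119209106-119209355, minus strand) and Slc22a26 (chr19:7802668-7802917, minus strand) were lower in number 4. Capitals mark TTTAACAGA, the stretch by which the 3 windows of the second group were chosen.
Slc22a6: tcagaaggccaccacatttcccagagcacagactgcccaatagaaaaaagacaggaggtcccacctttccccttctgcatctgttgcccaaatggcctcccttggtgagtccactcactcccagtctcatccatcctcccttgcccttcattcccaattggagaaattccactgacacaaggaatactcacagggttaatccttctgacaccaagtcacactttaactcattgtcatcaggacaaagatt
Slc22a8: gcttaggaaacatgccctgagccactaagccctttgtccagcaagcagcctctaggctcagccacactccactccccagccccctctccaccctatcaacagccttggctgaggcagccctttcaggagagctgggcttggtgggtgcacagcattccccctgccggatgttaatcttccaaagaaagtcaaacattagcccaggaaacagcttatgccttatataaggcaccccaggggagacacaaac
Slco1a6: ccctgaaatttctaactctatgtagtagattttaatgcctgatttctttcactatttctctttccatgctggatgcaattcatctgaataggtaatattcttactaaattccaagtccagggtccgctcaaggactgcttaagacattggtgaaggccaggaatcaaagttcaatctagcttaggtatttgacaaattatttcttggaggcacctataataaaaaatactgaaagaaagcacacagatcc
Slc22a19: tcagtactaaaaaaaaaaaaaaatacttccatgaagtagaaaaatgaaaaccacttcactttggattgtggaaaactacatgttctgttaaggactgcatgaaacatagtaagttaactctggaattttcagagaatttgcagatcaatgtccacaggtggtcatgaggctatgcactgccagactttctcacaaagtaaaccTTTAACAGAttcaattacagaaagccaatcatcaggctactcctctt
Slc22a13: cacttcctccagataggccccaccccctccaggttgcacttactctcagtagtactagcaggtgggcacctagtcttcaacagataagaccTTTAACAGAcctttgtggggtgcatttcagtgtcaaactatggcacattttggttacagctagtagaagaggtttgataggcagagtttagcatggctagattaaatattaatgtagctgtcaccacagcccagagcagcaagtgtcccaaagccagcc
Slc22a26: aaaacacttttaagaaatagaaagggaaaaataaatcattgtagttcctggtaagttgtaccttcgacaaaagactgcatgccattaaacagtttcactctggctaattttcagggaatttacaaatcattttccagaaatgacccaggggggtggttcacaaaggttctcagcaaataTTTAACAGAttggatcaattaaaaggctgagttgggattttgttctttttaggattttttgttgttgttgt

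Of the members lower in number 4, 5 have a RefSeq window, and TTTAACAGA was the longest stretch shared by 3 of those 5. It was found by searching these windows, so its presence there is a description without a test. Searched on both strands, it occurred in 66 of 27025 promoters of the same length (0.244%), and it began 47, 71 and 159 bases before the starts of Slc22a19, Slc22a26 and Slc22a13. Slc22a19 and Slc22a26 are neighbouring members on chromosome 19, and their windows also share AATTTTCAG and GACTGCATG. Their copies of the stretch may therefore not be independent. CAAAGTCCA, a core of the site bound by Hnf4a, was in 0.381% of promoters and in none of these windows. With so low a share, its absence from so few windows says nothing about Hnf4a sites. Only this exact stretch was searched, and variants of it were not. Neither exact stretch was in the windows of Slc22a6, Slc22a8 and Slco1a6.

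A small number of members carried nearly all of the transporter signal in PTS2. Mean levels reached 100 TPM for 16 members and 10 TPM for 22, and were under 1 TPM for 21. Among the highest, in descending order, were Slc22a18, Slc22a7, Slc47a1, Slc22a12, Slc22a2, Slc22a6 and Slco1a1, from 1379 ± 72.6 TPM down to 453 ± 173 TPM (SD, n = 12). The levels in this order from Slc47a1 to Slc22a6 (790.0 to 585 TPM) overlapped in their ranges. All members together held 0.819% to 1.01% of the TPM of a PTS2 library and 0.558% to 0.635% of that of a kidney library. These shares did not overlap.

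**Figure D1:**
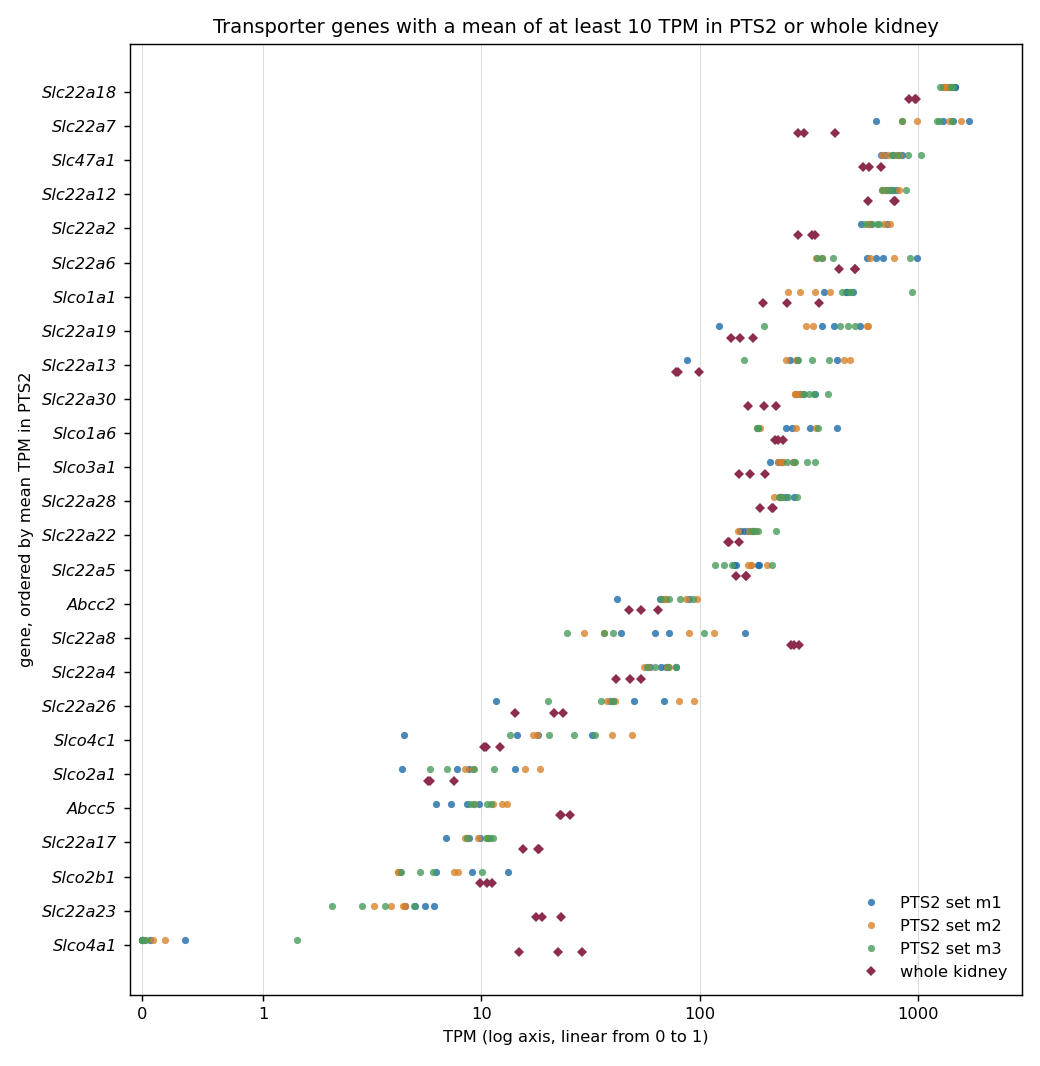
TPM in each library for the members reported here with a mean of 10 TPM or more in PTS2 or in whole kidney, on a log axis that is linear from 0 to 1, with 1 colour per PTS2 set and diamonds for whole kidney. Slc22a18 has the highest mean in both, and Slco4a1 lies at 1.43 TPM or less in every tubule and at 14.9 TPM or more in every kidney library.

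Of the 52 members, 35 averaged 1 TPM or more across all 15 libraries and were tested, with limma on log2(TPM + 1) and Benjamini-Hochberg adjustment over 12039 genes. The other 17 stayed at or under 1.76 TPM in every library, and Slc22a20 was listed at 0 in all 15. At an adjusted p under 0.05, 14 of the 35 were higher in PTS2 (9.68% of all genes tested were) and 9 were lower (41.5% of all genes tested were), and 12 were not called. The median log2 difference of PTS2 minus kidney was 0.29 over the 35 members and -0.27 over all genes tested. The limma calls of all genes depended on scaling: 18.9% of them were higher in PTS2 as deposited, 49.7% after median-of-ratios rescaling, which moved the median of all genes to 0.00, and 64.7% after quantile normalization, which moved it to 0.16. Under these scalings 20 and 21 members were higher and 8 were lower in both. Fold changes are on the log2(TPM + 1) scale, which understates those of low genes. In bulk tissue, fewer cells of a type and less RNA per cell cannot be told apart.

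The organic anion carriers Slc22a7, Slc22a6 and Slc22a8 showed all 3 outcomes. Slc22a7 (OAT2), which carries anions such as glutarate and cyclic GMP, was 418, 299.6 and 283 TPM in the kidney libraries, and in PTS2 its lowest, median and highest values were 644, 1271 and 1711 TPM. Every tubule exceeded every kidney library, by 1.84 ± 0.25 on the log2 scale (SE, limma adjusted p = 1.19e-05). Slc22a6 (OAT1), the classical carrier of para-aminohippurate, was 512, 511 and 435 TPM in kidney and 339, 591 and 988 TPM (lowest, median, highest) in PTS2. Its tubules lay on both sides of the kidney values, 7 above all and 5 below all, and the difference of 0.17 ± 0.31 was not called (limma adjusted p = 0.67). Slc22a8 (OAT3), which takes up larger anions, was 269.7, 261 and 284 TPM in kidney and 24.7, 52.9 and 161 TPM in PTS2. Every tubule was below every kidney library, with a log2 difference of -2.21 ± 0.47 (limma adjusted p = 0.000882). The ratio of Slc22a8 to Slc22a6, which are neighbours on the chromosome, was 0.0715 to 0.163 in the 12 tubules and 0.511 to 0.652 in kidney. S1 markers, at 1.49 TPM or less in PTS2, moved with Slc22a8, and their part in its difference was not tested.

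**Figure D2:**
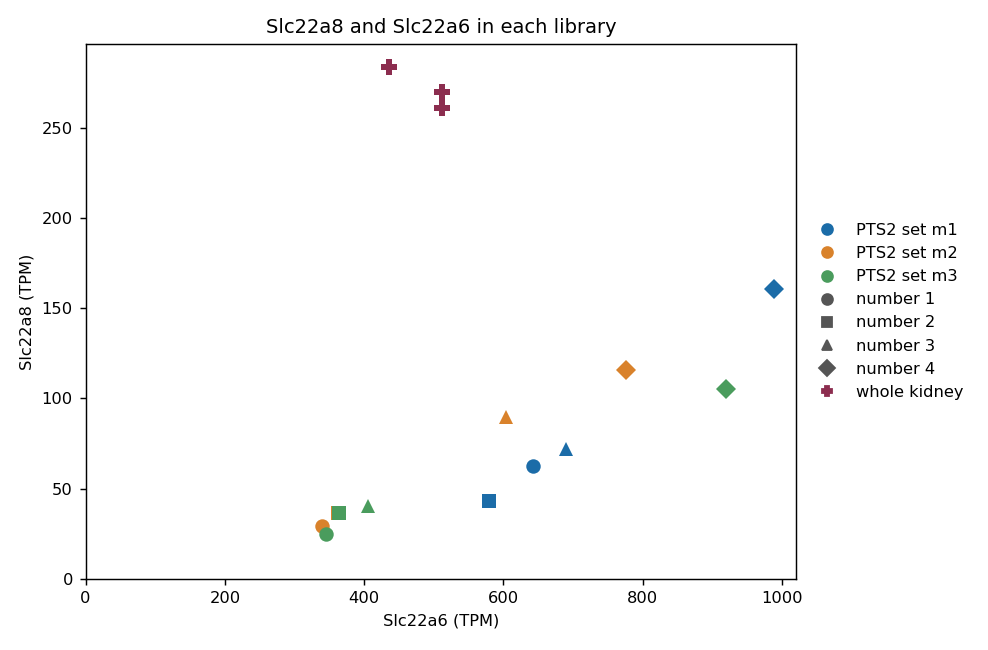
Slc22a8 against Slc22a6, both in TPM, 1 point per library, with colours for the sets and shapes for the numbers. The 3 kidney libraries lie far above the tubules in Slc22a8 (at least 261 against at most 161 TPM) but within their range in Slc22a6, and the tubules numbered 4 lie at the upper right.

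Among the other organic anion transporters, 10 members in all and 8 tested, 5 were higher in PTS2, 1 was lower and 2 were not called. Of all genes tested, 9.68% were higher and 41.5% were lower. Slc22a13 (OAT10), a brush-border carrier of urate and nicotinate, was 99.6, 78.1 and 79.3 TPM in kidney and 87, 280.0 and 487 TPM (lowest, median, highest) in PTS2, a log2 difference of 1.70 ± 0.38 (limma adjusted p = 0.00148). All tubules but number 4 of set m1 were above all kidney libraries. Slc22a19 (OAT5), a carrier of steroid sulfates, was 175, 139 and 153 TPM in kidney and 123, 424 and 589 TPM in PTS2, a log2 difference of 1.26 ± 0.38 (limma adjusted p = 0.0105). It was also above all kidney libraries in 11 tubules, and without kidney replicate 2 its adjusted p was 0.0503. Slc22a30 was 304 ± 34.5 TPM in PTS2 and 195 ± 28.3 in kidney, without overlap, and rose by 0.64 ± 0.10 (limma adjusted p = 6.84e-05). Slc22a28 was 242 ± 16.9 and 206 ± 15.2 TPM (0.23 ± 0.07), and the prostaglandin carrier Slc22a22 was 173 ± 18.8 and 141 ± 9.49 TPM (0.29 ± 0.09). Both were called higher (limma adjusted p = 0.0119 and 0.0124), and both calls were lost without kidney replicate 3 (limma adjusted p = 0.105 and 0.0679). That of Slc22a22 was also lost without kidney replicate 1 (limma adjusted p = 0.0563). Slc22a29 was the 1 lower member, at 6.91, 4.6 and 8.3 TPM in kidney and at most 2.35 TPM in PTS2 (log2 difference -2.00 ± 0.32, limma adjusted p = 6.33e-05).

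Slc22a12 (URAT1), the urate reabsorber of the brush border, was 748 ± 59.1 TPM in PTS2 and 714 ± 110.0 in kidney. Its log2 difference of 0.07 was not called (limma adjusted p = 0.512), was called higher after median-of-ratios rescaling (0.37, adjusted p = 0.00412) and was -0.07 after quantile normalization. Slc22a26 was 46.5 ± 23.6 TPM in PTS2 and 19.8 ± 4.94 in kidney, and its difference of 1.04 missed the threshold (limma adjusted p = 0.0579). It was called higher after median-of-ratios rescaling (1.32, limma adjusted p = 0.0204) and quantile normalization (1.42, adjusted p = 0.0111), with 1 mean per set and with the replicate number as a block. Whole kidney has no number 4, so the block gave the same difference as leaving out the tubules numbered 4 (1.35). Slc22a26 was lowest in those tubules in every set. It was also called without the first 2 tubules with raised thick ascending limb markers (1.23, limma adjusted p = 0.00816) and without all 3 (1.15, adjusted p = 0.0104). Both alternatives were chosen after seeing the data and leave out its lowest tubule, number 4 of set m1 at 11.7 TPM. Members of this group resemble each other in sequence. Of the 50-base stretches in its transcripts, Slc22a28 shared 53.9% with other genes, mostly Slc22a30, which in turn shared 34.3%. Slc22a13 shared 36.0% with its pseudogene Slc22a13b-ps, itself listed at no more than 0.23 TPM in any library, and Slc22a12 shared 27.4% with the overlapping gene Nrxn2. Slc22a29 shared 28.7%, mostly with Slc22a27. Values of these members are uncertain to the extent that reads were divided between copies. Slc22a6, Slc22a7, Slc22a18 and Slc47a1 shared none, and Slc22a8 and Slc22a19 under 1%.

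Of 5 organic cation transporters, 3 were tested and all 3 were higher in PTS2, where 9.68% of all genes tested were. They include carriers of both membranes. Slc22a2 (OCT2), a basolateral uptake carrier, was 327, 336 and 281 TPM in kidney and 544, 607 and 739 TPM (lowest, median, highest) in PTS2. The groups did not overlap, and the log2 difference was 1.00 ± 0.09 (limma adjusted p = 1.09e-07). Slc47a1 (MATE1), which exchanges cations for protons at the brush border, was 597, 673 and 557 TPM in kidney and 678, 776 and 1032 TPM in PTS2. The ranges nearly touched (673 and 678 TPM), and the difference of 0.37 ± 0.10 (limma adjusted p = 0.00744) was not called after quantile normalization (0.23, adjusted p = 0.0973) or without kidney replicate 3 (adjusted p = 0.0578). The cation members that were not tested, Slc22a3 and Slc47a2, had mean levels of 0.211 and 0.106 TPM in PTS2, although Slc47a2 lies beside Slc47a1 on chromosome 11.

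Of 4 carriers of carnitine and other zwitterions, 3 were tested, 1 was higher in PTS2 and 2 were not called, against 9.68% higher of all genes tested. Slc22a5 (OCTN2), which reabsorbs carnitine, was 165 ± 29.9 TPM in PTS2 and 157 ± 8.87 in kidney (log2 difference 0.04, limma adjusted p = 0.824). Slc22a4 (OCTN1), the ergothioneine carrier, was 66.5 ± 7.9 and 47.7 ± 6.2 TPM and rose by 0.47 ± 0.11 (limma adjusted p = 0.00241), with every tubule above every kidney library. Slc22a21 was 1.19 ± 0.534 and 1.34 ± 0.454 TPM and not called. Of its 50-base stretches 22.0% are shared, nearly all with Slc22a5, which in turn shared 26.3%, nearly all with Slc22a21. Slc22a18, an imprinted carrier-like gene, was 981, 967 and 908 TPM in kidney and 1257, 1388 and 1480 TPM (lowest, median, highest) in PTS2, a non-overlapping difference of 0.53 ± 0.06 (limma adjusted p = 1.11e-06). Slc22a17, a receptor for lipocalin, and Slc22a23 were lower in every tubule. Slc22a23 was 4.2 ± 1.14 TPM in PTS2 and 19.9 ± 2.81 in kidney (log2 difference -2.04 ± 0.20, limma adjusted p = 2.51e-07), and Slc22a17 was 9.57 ± 1.32 and 17.3 ± 1.56 TPM (-0.80 ± 0.13, adjusted p = 5.74e-05).

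**Figure D3:**
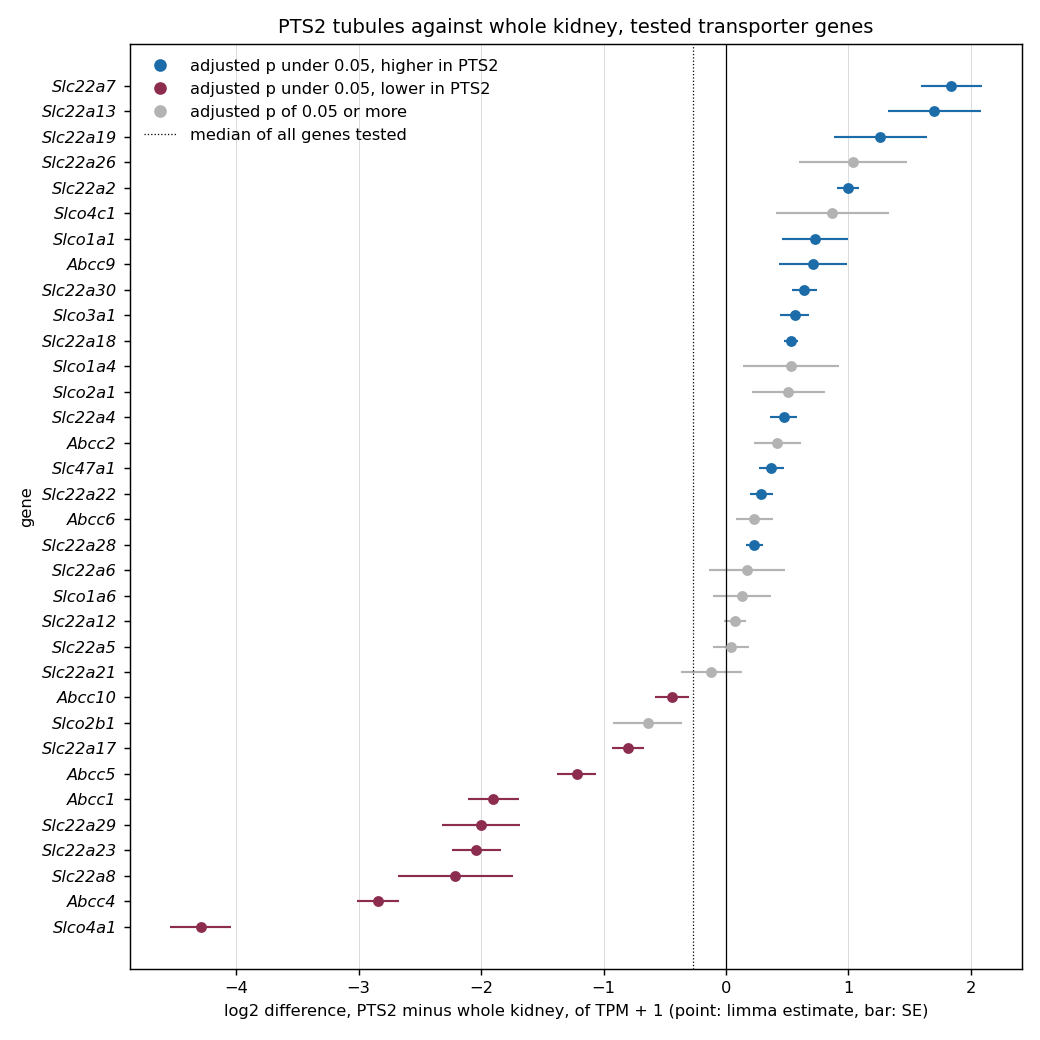
Log2 difference of PTS2 minus whole kidney on the log2(TPM + 1) scale for the tested members reported here, with bars of 1 SE, calls at a limma adjusted p under 0.05 in colour and a dotted line at the median of all genes tested (-0.27). Slc22a7 and Slc22a13 are the highest at 1.84 and 1.70, and Slco4a1 and Abcc4 the lowest at -4.29 and -2.84.

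Of 15 Slco members, 8 were tested; 2 were higher in PTS2, 1 was lower and 5 were not called, against 9.68% higher and 41.5% lower of all genes tested. Slco4a1, a carrier of thyroid hormones and prostaglandins, had the largest difference of the tested members. It was 22.3, 14.9 and 28.9 TPM in kidney, and in PTS2 it was listed at 0 in 4 tubules, with a median of 0.03 TPM. The log2 difference was -4.29 ± 0.25 (limma adjusted p = 2.91e-10). Its 3 highest tubules, at 1.43 TPM in number 3 of set m3, 0.36 TPM in number 4 of set m1 and 0.19 TPM in number 2 of set m2, were the 3 with raised thick ascending limb markers. Without these 3 the log2 difference was -4.44 (limma adjusted p = 1.6e-11). The part of thick ascending limb cells in the values of Slco4a1 was not tested. Slco3a1 was 257 ± 36.6 TPM in PTS2 and 174 ± 24.5 in kidney, without overlap, and rose by 0.56 ± 0.12 (limma adjusted p = 0.000909). Slco1a1, a carrier of bile acids and steroid conjugates, was 251, 351 and 195 TPM in kidney and 254, 457 and 935 TPM in PTS2, a difference of 0.73 ± 0.27 (limma adjusted p = 0.0306). That call was lost without any filter on low values (adjusted p = 0.0623), without kidney replicate 1 (adjusted p = 0.0905), without kidney replicate 3 (adjusted p = 0.182) and with the replicate number as a block (adjusted p = 0.0613). It was also lost without the first 2 tubules with raised thick ascending limb markers (limma adjusted p = 0.0555) but not without all 3 (adjusted p = 0.03). Both alternatives were chosen after seeing the data. The other 5 were not called (limma adjusted p between 0.0632 and 0.68). Slco1a6 was 262 ± 81.3 TPM in PTS2 and 230.0 ± 10.6 in kidney, and Slco2b1 was 6.83 ± 2.83 and 10.6 ± 0.699 TPM. Slco4c1, a basolateral carrier of cardiac glycosides, was 23.9 ± 12.5 and 11 ± 1.01 TPM, and the prostaglandin transporter Slco2a1 was 10 ± 4.23 and 6.32 ± 0.985 TPM. Both were called higher after median-of-ratios rescaling (limma adjusted p = 0.0482 for Slco4c1 and 0.0438 for Slco2a1), after quantile normalization (0.0124 and 0.0021), with 1 mean per set (0.0122 and 0.0424) and with the replicate number as a block (0.00769 and 0.00796). The block again gave the same differences as leaving out the tubules numbered 4 (1.18 for Slco4c1 and 0.695 for Slco2a1). Both members were lowest in those tubules in every set. Slco4c1 was also called without the first 2 tubules with raised thick ascending limb markers (1.06, limma adjusted p = 0.0163) and without all 3 (0.99, adjusted p = 0.0201). These leave out its lowest tubule, number 4 of set m1 at 4.42 TPM.

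Of 8 multidrug resistance-associated proteins, efflux pumps of the Abcc family, 6 were tested. None was higher and 4 were lower in PTS2, where 41.5% of all genes tested were lower. Abcc4 (MRP4), a pump of urate, cyclic nucleotides and antiviral drugs, was 8.9, 8.43 and 7.18 TPM in kidney and at most 0.75 TPM in PTS2 (median 0.225), a log2 difference of -2.84 ± 0.17 (limma adjusted p = 3.9e-10). Abcc1 (MRP1), a basolateral pump of glutathione conjugates, was 4.55, 4.64 and 4.16 TPM in kidney and at most 1.46 TPM in PTS2 (-1.90 ± 0.21, limma adjusted p = 8.93e-07). Its highest tubule was number 3 of set m3, and without the 3 tubules with raised thick ascending limb markers the difference was -1.95 (limma adjusted p = 3.2e-07). Markers of other nephron segments were lower in the tubules too (those of the distal convoluted tubule summed to at most 0.55 TPM against at least 202 TPM in kidney), and their part in these differences was not tested. Abcc5 (MRP5), a pump of cyclic nucleotides, was 9.8 ± 2 TPM in PTS2 and 23.8 ± 1.41 in kidney (-1.22 ± 0.16, limma adjusted p = 7.44e-06), without overlap. Abcc10 was called lower (-0.44 ± 0.14, limma adjusted p = 0.0133), but not after median-of-ratios rescaling (-0.21, adjusted p = 0.192) or without kidney replicate 1 (-0.43, adjusted p = 0.0514), and it was called higher after quantile normalization (0.36, adjusted p = 0.0227). Abcc2 (MRP2), the pump of the brush border, was the most abundant Abcc member at 75 ± 15.2 TPM in PTS2 and 55.2 ± 8.45 in kidney. Its difference of 0.42 missed the threshold (limma adjusted p = 0.0703) and passed it after median-of-ratios rescaling (0.70, adjusted p = 0.000987) and quantile normalization (0.60, adjusted p = 0.00413), as did Abcc6 under both (0.47 and 0.99). Abcc9, a regulatory subunit of potassium channels and no drug pump, was called higher at 3.99 ± 1.92 against 1.88 ± 0.266 TPM (0.71 ± 0.28, limma adjusted p = 0.0435). That call was lost in 7 of the 15 fits that left out 1 library. Mural cell markers summed to at most 2.76 TPM in PTS2 and at least 53.3 TPM in kidney, and endothelial markers are given above.

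Among the tubules, members differed in how steady they were. Slc22a18, Slc22a28 and Slc22a12 had a coefficient of variation (SD over mean) of 5.27%, 6.97% and 7.9% over the 12 libraries. Slc22a8 had one of 62.0%, Slco4c1 of 52.5%, Slc22a26 of 50.8%, Slc22a6 of 39.1% and Slc22a13 of 38.7%. No member was called between sets m1, m2 and m3 in the F test of limma (0 of 31 tested, against 3.02% of 11300 genes), although 6 had an unadjusted p under 0.05. With the replicate number as a block, 5 of 31 members were called, against 888 of 11300 genes. Among the 5 were Slco1a1 (limma adjusted p = 0.00525) and Slc22a6 (adjusted p = 0.0327). Without the block the lowest adjusted p was 0.102, for Slco1a1. It was 470.5, 369.8, 466 and 502 TPM in set m1, 288, 254, 335 and 396 TPM in set m2, and 480.4, 449, 494 and 935 TPM in set m3. Set m3 lay wholly above set m2, by 0.84 ± 0.21 on the log2 scale (limma adjusted p = 0.0663).

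Some of the variable members differed between the tubule numbers, which occur once in each set. The numbers were treated as names without an order, and number 4 minus number 1 is the only pair of numbers given. In the limma F test over numbers 1 to 4 with set as a factor, 9 of 31 tested members were called (29%), against 2.71% of 11300 genes. Abcc9, Slc22a21 and Slco2b1, with coefficients of variation of 48.3%, 44.8% and 41.4%, were not called (adjusted p = 0.402, 0.865 and 0.116). Slc22a7 was called with one of 26.7%. Of the 9, 3 were higher in number 4 than in number 1, namely Slc22a6, Slc22a8 and Slco1a6. The other 6 were lower in number 4, namely Slc22a7, Slc22a13, Slc22a19, Slc22a26, Slco2a1 and Slco4c1. These calls rested on the fit: limma called 0 genes without the set factor and 0 without a filter on low values. The adjusted p of the 9 members was then 0.0983 to 0.279 and 0.114 to 0.216, and 12 and 18 members had an unadjusted p under 0.05.

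Slc22a8 was 62.3, 29.4 and 24.7 TPM in the libraries numbered 1 of sets m1, m2 and m3, 43.4, 36.4 and 36.5 TPM in those numbered 2, 71.9, 89.7 and 40.1 TPM in those numbered 3, and 161, 116 and 105 TPM in those numbered 4. Every library numbered 4 was above the other 9, and number 4 exceeded number 1 by 1.78 ± 0.23 on the log2 scale (SE; F test of limma, adjusted p = 0.0102). Slc22a6, its neighbour, was 642, 339 and 346 TPM in number 1, 579.8, 362 and 364 TPM in number 2, 690.2, 603 and 406 TPM in number 3, and 988, 777 and 919 TPM in number 4. It too was highest in all libraries numbered 4 (1.07 ± 0.16, F test of limma, adjusted p = 0.0121). Slco1a6, an anion carrier of the kidney, was 423, 342 and 347 TPM in number 4 and 183 to 318 TPM in the other 9 libraries (0.83 ± 0.11, F test of limma, adjusted p = 0.0102). The ratio of Slc22a8 to Slc22a6 was 0.114 to 0.163 in number 4 and 0.0715 to 0.149 in the others, so these overlapped.

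Slc22a7 moved the other way. It was 1711, 1576 and 1428 TPM in the libraries numbered 1 of sets m1, m2 and m3, 1448, 1378 and 1218 TPM in number 2, 1301, 992 and 1242 TPM in number 3, and 644, 842 and 843 TPM in number 4. Number 4 was below the other 9 libraries, with a log2 difference from number 1 of -1.02 ± 0.13 (F test of limma, adjusted p = 0.0116). Each library numbered 4 stayed above the highest kidney value of 418 TPM. The ratio of Slc22a7 to Slc22a6 was 0.652 to 1.08 in number 4, 1.64 to 4.65 in the other tubules and 0.586 to 0.817 in whole kidney.

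Slc22a19 was 123, 307 and 196 TPM in number 4 and 329 to 589 TPM in the other 9 libraries (-1.48 ± 0.21, F test of limma, adjusted p = 0.0142). Slc22a13 was 87, 247 and 159 TPM in number 4 and 258 to 487 TPM in the others (-1.51 ± 0.21, F test of limma, adjusted p = 0.0142). Neither overlapped. Slc22a26, Slco4c1 and Slco2a1 overlapped with other numbers but were lowest in number 4 in 3 of 3 sets. Their number means were 67.6 ± 26.8 and 23.2 ± 13.3 TPM for Slc22a26 in numbers 1 and 4 (SD, n = 3), and the log2 difference was -1.57 ± 0.26 (F test of limma, adjusted p = 0.028). Slco4c1 had 38.1 ± 9.38 and 11.8 ± 6.63 TPM (-1.76 ± 0.25, F test of limma, adjusted p = 0.0142), and Slco2a1 14.7 ± 3.58 and 6.16 ± 2.06 TPM (-1.15 ± 0.15, F test of limma, adjusted p = 0.0116). On chromosome 19, Slc22a28 and Slc22a30, which lie in the same row of genes as Slc22a19 and Slc22a26, were not called and differed by -0.02 and -0.05 between numbers 4 and 1.

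**Figure D4:**
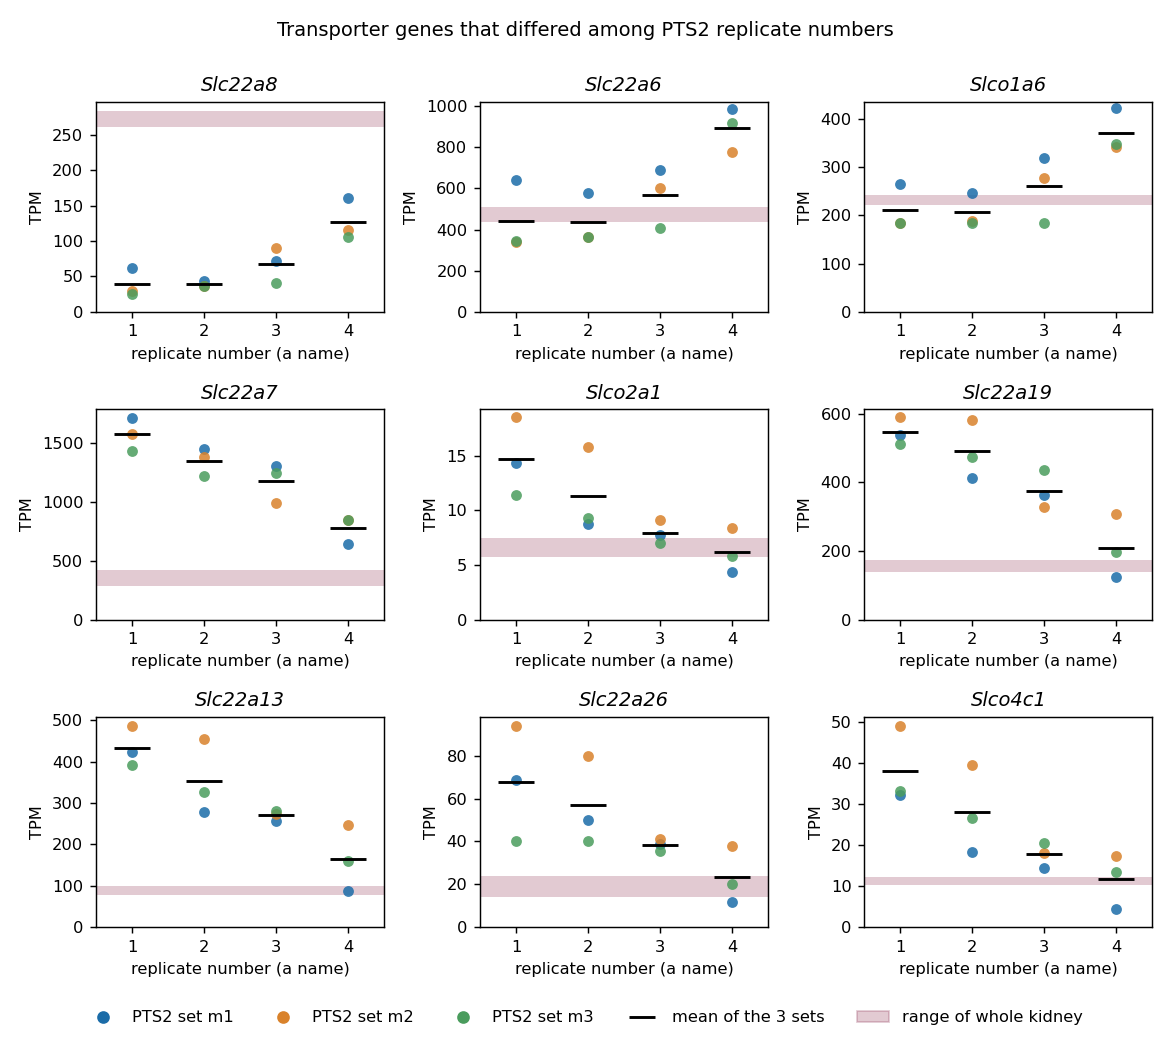
TPM of the 9 members called between tubule numbers, 1 panel per gene, with the replicate number on the x axis as a name. Points are libraries coloured by set, black bars are the means of the 3 sets and the shaded band is the range of whole kidney; number 4 is highest in all 3 sets for Slc22a6, Slc22a8 and Slco1a6, and lowest in all 3 for the other 6.

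Of the 4 general proximal tubule markers, 1 was called between numbers. This was Slc34a1, the phosphate carrier, which was 4881, 4487 and 5082 TPM in number 4 and 2397 to 3409 TPM in number 1 (F test of limma, adjusted p = 0.0142). Lrp2, Cubn and Slc27a2 were not called (adjusted p = 0.178, 0.188 and 0.211). The S3 marker Cyp7b1 was 96.8, 264.6 and 260.0 TPM in number 4 and 625 to 784 TPM in number 1 (F test of limma, adjusted p = 0.00839), while the other S3 marker, Slc7a13, was 1367 to 1836 and 1822 to 2141 TPM and was not called (adjusted p = 0.105). Markers of other cell types were called too. Aqp3, a water channel of principal cells, was highest in number 4 in all 3 sets (43.1, 21.4 and 29.7 TPM against 15.9, 7.31 and 11.6 TPM in number 1; F test of limma, adjusted p = 0.027). The principal cell markers summed to at least 21.6 TPM in number 4 and at most 16.9 TPM in number 1, most of it Aqp3. Their Aqp2 did not follow Aqp3 in all sets and was not called (F test of limma, adjusted p = 0.914). It was 6.9, 0.12 and 0.59 TPM in number 4 of sets m1, m2 and m3, against 0.95, 0.47 and 1.2 TPM in number 1. Number 4 was thus highest in set m1 but lowest in sets m2 and m3. The principal cell marker Scnn1g stayed at 0.09 TPM or less in all tubules. The macrophage marker Csf1r was lowest in number 4 in all 3 sets (14.99, 25.3 and 36.5 TPM against 42.8, 56.0 and 69.7 TPM in number 1; F test of limma, adjusted p = 0.00943), and C1qa and C1qb were not called. S1 markers stayed at 1.49 TPM or less in all tubules. The part of tubule segment and of other cell types in the members' differences was not tested. Single libraries also counted: leaving each out in turn gave 4 to 9 called members, 4 without number 4 of set m3. Slc22a7 and Slco1a6 were called in all 12 such fits. Slc22a26 lost its call in 5 of them (F test of limma, adjusted p up to 0.0945). Slc22a6, Slc22a8 and Slc22a19 lost theirs in 2 each, and Slc22a13, Slco4c1 and Slco2a1 in 1 each. Without the first 2 tubules with raised thick ascending limb markers (chosen after seeing the data) 7 members were called among 64 genes. Slc22a8 (F test of limma, adjusted p = 0.057) and Slco2a1 (adjusted p = 0.0827) no longer passed. This fit and the next left out number 4 of set m1, so fewer libraries stood for number 4. Without all 3 such tubules 5 members were called among 56 genes, and Slc22a6 (adjusted p = 0.0585), Slc22a19 (adjusted p = 0.0617), Slc22a8 (adjusted p = 0.0908) and Slco2a1 (adjusted p = 0.0852) no longer passed.

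Other genes of drug transport were taken from a list of 30 carriers, pumps, scaffolds and regulators, of which 26 were tested. Against whole kidney, 10 were higher in PTS2, 5 lower and 11 not called, against 9.68% higher and 41.5% lower of all genes tested. The median log2 difference was 0.05, against -0.27 over all genes tested. Slc17a3 (0.79 ± 0.08, limma adjusted p = 7.12e-07) and Slc17a1 (0.50 ± 0.07, adjusted p = 1.37e-05), brush-border carriers of urate and organic anions, were higher, as was Pdzk1 (0.42 ± 0.07, adjusted p = 0.000157), a scaffold that holds several carriers at the brush border. The bile acid carrier Slc10a2 was 68 ± 25.4 TPM in PTS2 and 25.9 ± 2.97 in kidney, without overlap. The nucleoside carrier Slc29a1 was 30.3, 31.6 and 30.2 TPM in kidney and at most 5.72 TPM in PTS2 (-3.19 ± 0.29, limma adjusted p = 8.86e-08), and the scaffold Slc9a3r2 also fell (-2.67 ± 0.17, adjusted p = 1.18e-09). The efflux pump Abcg2 was 674 ± 63.4 and 621 ± 37.0 TPM and not called. Among regulators, Hnf4a was not called, while Nfe2l2 (-0.67 ± 0.11), Ppara (-0.69 ± 0.18) and Ahr (-1.14 ± 0.17) were lower in PTS2 (limma adjusted p = 6.25e-05, 0.00478 and 4.09e-05).

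Between the tubule numbers 4 of the 26 were called, against 2.71% of 11300 genes, and as for the members limma called none without the set factor or without the filter. Slc13a3, a dicarboxylate carrier that supports anion exchange at the basolateral membrane, was 336, 252 and 236 TPM in number 4 and 231, 179 and 120.5 TPM in number 1, and was higher in number 4 (0.66 ± 0.09, F test of limma, adjusted p = 0.00964). The steroid carrier subunit Slc51a was also higher in number 4 (1.43 ± 0.24, adjusted p = 0.0308). The peptide carrier Slc15a2 (-0.60 ± 0.10, F test of limma, adjusted p = 0.0264) and the folate carrier Slc46a1 (-0.58 ± 0.11, adjusted p = 0.043) were lower in number 4.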

How the data were processed

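The values analysed were the TPM that the authors deposited in 1 table, in which genes are rows and libraries are columns. Per the submitters' processing notes, STAR 2.5.1b, RSEM 1.2.31 and GRCm38.p5 were used; the annotation release and settings are not given in the sources used here. Per the labels' protocols, cDNA was made with a kit for ultra-low RNA input. A further 4 columns, holding group means and standard errors, were left out.

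Members and gene lists were chosen with earlier results of these data known. Libraries were grouped by the set and number in the labels. The test was that of limma 3.58.1 (R 4.3.3, mean-variance trend) on log2(TPM + 1). It covered genes averaging 1 TPM or more in the libraries fitted, with Benjamini-Hochberg adjustment over all genes tested and a threshold of 0.05. PTS2 against kidney used set as a correlated block (correlation 0.0669), the sets an F test, and the numbers an F test with set as a factor. The fits were also run on simulated data, and the outcome is not given here. Members averaging 10 TPM or more in PTS2 or kidney, and called members without overlap between groups, are described with values. A few genes are not reported here. Tables and figures were made in Python 3.11.15 (pandas 2.3.3, numpy 2.4.6, matplotlib 3.10.9). Transcript overlap was counted as shared 50-base stretches in GENCODE M21. Alternatives covered the pseudocount (0.1), the filter (none, or 10 TPM), 2 rescalings, other designs and leaving out each library, and 3 more ways of leaving out libraries were added after seeing the data.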

Additional observations from a re-analysis of the deposited data

Results flagged for a closer look

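In 93 tests of 1 library against the other 3 of its set, 6 values stood apart by Dixon's test, and chance alone would give 4.65. Of the 6, 4 were libraries numbered 4 and 3 of those were from set m3. In number 4 of set m3, Slc22a6 was 918.82 TPM (next 405.83), Slco1a1 was 934.71 TPM (next 494.38) and Slco1a6 was 346.65 TPM (next 184.81). In number 4 of set m2, Slc22a5 was 203.51 TPM (next 171.95). Slc22a18 was lowest in number 3 of set m3, the library rich in thick ascending limb markers, at 1257.35 TPM (next 1412.59). Abcc6 was highest in number 1 of set m1 at 8.41 TPM (next 5.66).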

How the results depend on the processing

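For PTS2 against kidney, all genes called lower numbered 8325 without a filter and 2130 with a filter at 10 TPM, where 3 members were lower. Higher and lower genes numbered 2830 and 2859 after median-of-ratios rescaling and 4164 and 2273 after quantile normalization. Log2 differences reversed for Slc22a21 (0.0270 and 0.759 under these scalings, -0.281 to 0.00332 with 1 library left out), Abcc10 (0.356 with quantile normalization), Slc22a12 (-0.0740 with quantile normalization, -0.0605 to 0.144 with 1 library left out) and Slc22a5 (-0.00365 to 0.0847 with 1 library left out). With the replicate block, and equally without the tubules numbered 4 (chosen after seeing the data), Slc22a6 was -0.0664, Slco1a6 -0.0580 and Slc22a5 -0.0578; under the block the Slco1a1 call was lost (adjusted p = 0.0613). Leaving out 1 library gave 9 to 16 higher and 8 to 10 lower members, and 807 to 1315 higher and 3752 to 5397 lower genes; 9 members were higher without kidney replicate 3. Over all alternatives and members of this comparison, 831 values kept call and direction, 21 lost the call, 33 gained one and 13 reversed.

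Between sets, 196 genes were called without a filter, 197 to 563 with 1 library left out (197 without number 1 and 209 without number 3 of set m3), and 0 members in each of these fits. With the replicate block 888 genes and 5 members were called, namely Slc22a6 (adjusted p = 0.0327), Slco1a1 (0.00525), Slco3a1 (0.042), Slco1a6 (0.0204) and Slco2a1 (0.0377). Same-numbered libraries correlated by 0.0254 to 0.273 after centring on their set (mean 0.143, 7 of 12 pairs over 0.1; mean of the other 36 pairs -0.0481), and 9 of 12 libraries correlated best with their own number. All pairs of numbers 1 and 4 were over 0.1 and 5 pairs of numbers 2 and 3 were not. The numbers were to be taken as pairing only if every pair was over 0.1, so the block stayed an alternative; the labels do not say what a number marks.

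Between numbers, 0 genes and 0 members (0 higher, 0 lower in number 4) were called without a filter and again without the set factor. Without the first 2 tubules with raised thick ascending limb markers, 64 genes were called. Without all 3, 56 genes and 5 members (1 higher, 4 lower in number 4) were called. Leaving out 1 library gave 75 to 507 genes (75 without number 4 of set m1), 4 to 9 members, 1 to 3 of them higher and 3 to 6 lower in number 4. The cause of these changes was not tested. Without counts, what depth limits is unknown.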
